A study of Mus musculus with 2 samples.

Results

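The clustered protocadherin locus on mouse chromosome 18 was described as every cytosine position between 37080000 and 38010000 (build NCBIM37, mm9) that was covered in both libraries of the screen. These limits gave 491 positions on 465 CpGs, of 826937 covered positions in all, and no methylation value entered the choice. The window holds 11206 CpGs, so that 4.15 % of them were covered. DNA methylation was measured by reduced representation bisulfite sequencing (RRBS), in which DNA is cut with MspI at CCGG, a size range of fragments is treated with bisulfite, and cytosines that escape conversion are counted as methylated. One library came from wildtype (wt) mouse embryonic fibroblasts (MEFs) and the other from MEFs of mice with the genotype ESR2 -/-, which lack oestrogen receptor β (βerko), both of the strain C57BL/6, grown in the same medium, with no treatment given in the labels. Each library was 1 pool of DNA from 3 batches. Without replicates, a difference here is one between 2 libraries. MEFs are fibroblasts, not neurons, and methylation values alone allow no check of the cell type or of the loss of the receptor.

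The locus holds 3 tandem clusters of genes, Pcdha (alpha), Pcdhb (beta) and Pcdhg (gamma), which encode cadherin-like proteins of the cell surface. In neurons, combinations of these proteins give single cells a surface identity by which their processes tell self from non-self. Each alpha and gamma variable exon has its own promoter and encodes the extracellular part, the membrane span and the start of the cytoplasmic part of a protein, and it is spliced to constant exons shared by its cluster, whereas beta genes are single exons. The promoters of most variable exons are known to be methylated where they are silent. The C-type exons at the ends of the alpha and gamma clusters (Pcdhac1, Pcdhac2, Pcdhgc3, Pcdhgc4 and Pcdhgc5) differ in sequence from the others and are chosen less randomly.

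In wt MEFs the covered positions of variable exons other than the C-type were mostly methylated in the alpha, beta and gamma clusters. The C-type exons Pcdhac1, Pcdhac2 and Pcdhgc3 were mostly unmethylated around their starts. In βerko MEFs the gamma cluster was less methylated, with means of 72.1 % in wt and 64.8 % in βerko, while the alpha cluster differed by 2.05 points, a direction that turned with the way of averaging, and the beta cluster by -1.04 points. Among variable exons with at least 5 covered positions, Pcdhgc4 differed most, and its 14 positions around the start averaged 65.6 % in wt against 14.8 % in βerko MEFs. The difference at Pcdhac1 was the other way, 33.9 % in wt and 45.9 % in βerko MEFs over 19 positions. With 1 library per cell type, none of these differences can be set against a spread between cultures or animals.

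The 491 positions averaged 66.1 % methylation in wt against 62.1 % in βerko MEFs, a difference (βerko minus wt) of -4.02 percentage points. Without the 14 positions of the exon Pcdhgc4 and its upstream region, a choice made after its values were seen, the difference was -2.65 points. The medians were 82.5 % and 75.8 %. Over all covered positions of the genome the means were 40.7 % and 38.8 %, and over the 24331 other positions of chromosome 18 they were 41.2 % and 39.3 %. The locus was more methylated than either in both libraries. Below 20 % methylation lay 18.9 % of its positions in wt (Wilson interval at 95 %, 15.7 to 22.6 %), compared to 22.6 % in βerko (19.1 to 26.5 %), against 50.3 % and 53.4 % of all positions. Above 80 % lay 53.0 % in wt (48.5 to 57.3 %), compared to 46.8 % in βerko (42.5 to 51.3 %), against 32.5 % and 31.5 % of all positions. These intervals treat positions as independent, which neighbours on one fragment are not.

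Methylation was lower in βerko MEFs by at least 20 percentage points at 88 of the 491 positions (17.9 %), where 10.4 % of all covered positions passed this difference. It was higher by at least 20 points at 47 positions (9.57 %), where 6.81 % of all positions did. At 50 points or more, 23 positions (4.68 %) were lower and 4 (0.815 %) were higher, against 2.92 % and 1.47 % of all positions. Without Pcdhgc4, 14 positions (2.94 %) were lower and 4 (0.839 %) higher by this much, so the share of lower ones was near that of the genome. Since the locus was the more methylated in wt, positions were also compared from the same wt level. Of the 260 locus positions above 80 % in wt, 51 (19.6 %) were lower by at least 20 points in βerko MEFs, against 15.6 % of all such positions. Of these 260, 184 stayed above 80 %, 74 lay between 20 and 80 %, and 2 were below 20 % in βerko MEFs. The share that stayed above 80 % was 70.8 % in the locus and 80.5 % over the genome. Cut at CCGG, the 491 positions lay on 151 MspI fragments, with a median of 3 positions each. The fragment mean was lower in βerko MEFs by at least 20 points on 22 fragments (14.6 %) and higher on 10 (6.62 %), where 9.16 % and 7.85 % of 229389 covered fragments of the genome were. In the gamma cluster it was lower on 13 and higher on 1 of 79 fragments. No p-value is given for these shares, since the depth of most positions is unknown and neighbours share reads.

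**Figure D1:**
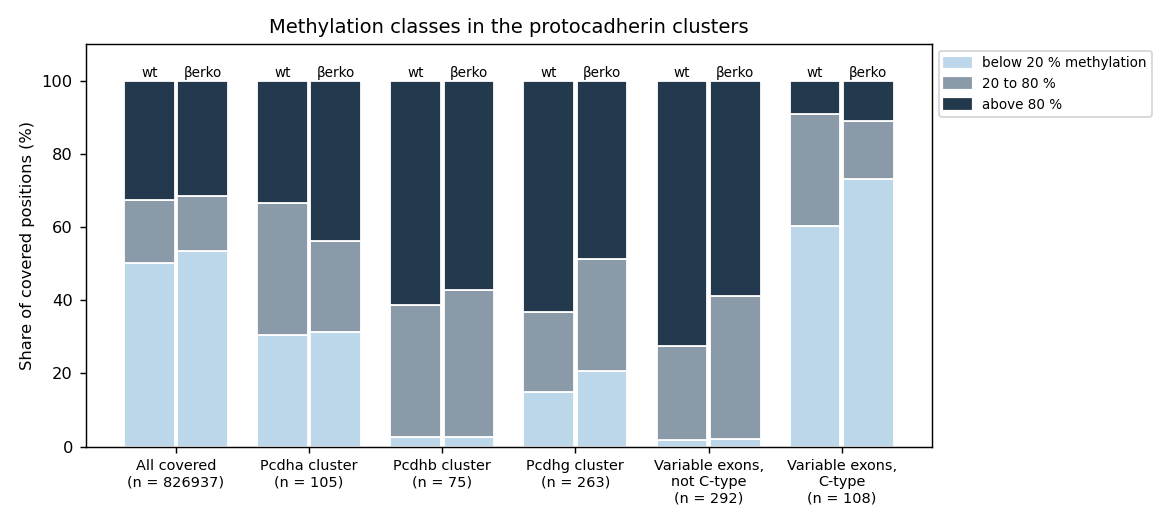
Share of covered positions (%, y axis) below 20 %, from 20 to 80 % and above 80 % methylation, in wt and βerko MEFs, for all covered positions, for the 3 protocadherin clusters, and for the variable exons (each with 500 bp upstream) apart from and of the C-type; the number of positions stands under each pair of bars. The share above 80 % was 63.1 % in wt and 48.7 % in βerko MEFs in the gamma cluster, and C-type exons were mostly below 20 % in both.

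The 3 clusters were covered unequally. The alpha cluster, from 37089939 to 37347311, had 105 positions on 3.09 % of its CpGs, the beta cluster, from 37424652 to 37681073, had 75 positions on 2.57 %, and the gamma cluster, from 37821599 to 38001527, had 263 positions on 7.34 %. The alpha cluster averaged 53.2 % in wt against 55.2 % in βerko MEFs, with 12 positions lower and 18 higher by at least 20 points. This difference of 2.05 points had no settled direction, since it was -0.26 points as a mean over the alpha exons with at least 5 positions and -0.67 points over the 86 positions of alpha variable exons. In the beta cluster the means were 78.3 % and 77.2 %, with 11 positions lower and 11 higher. In the gamma cluster the mean differed by -7.27 points, with 55 positions lower and 12 higher. By at least 50 points, 16 were lower and 0 higher. Lower by at least 20 points were 11.4 % of alpha, 14.7 % of beta and 20.9 % of gamma positions, against 10.4 % of all covered positions. Higher were 17.1, 14.7 and 4.56 %, against 6.81 %. Without Pcdhgc4 the gamma difference was -4.82 points and 42 positions (16.9 %) were lower by at least 20 points. By at least 50 points, 7 positions (2.81 %) were then lower, near the 2.92 % of all positions. Values lower by at least 20 points were thus found in the gamma cluster outside Pcdhgc4 too. Of the 166 gamma positions above 80 % in wt, 114 (68.7 %) stayed above 80 % in βerko MEFs.

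**Figure D2:**
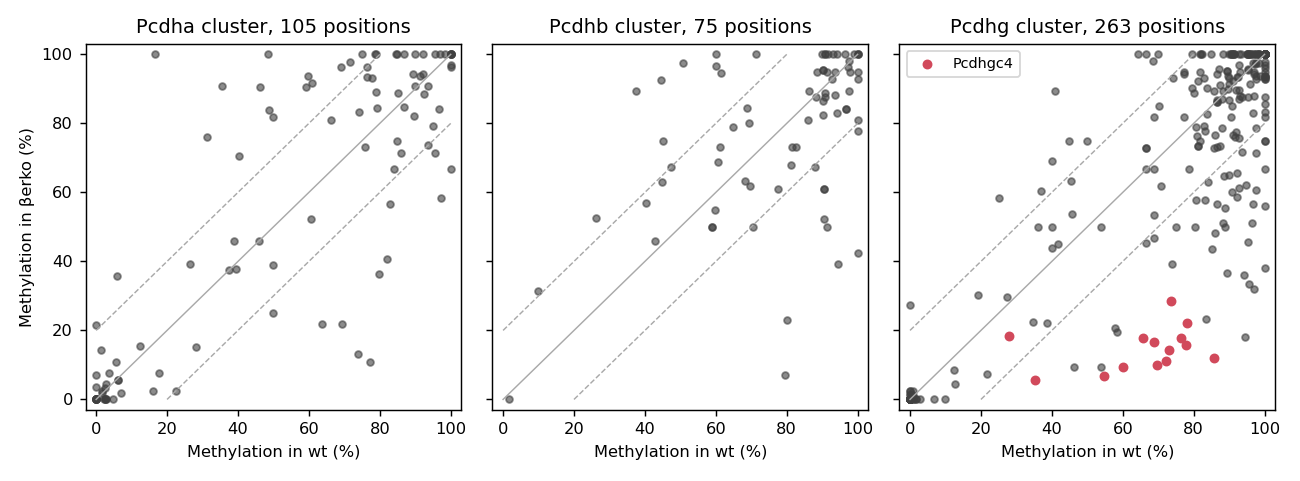
Methylation (%) of each covered position in wt (x axis) and βerko MEFs (y axis), 1 panel per cluster; the solid line marks equal values, the dashed lines a difference of 20 percentage points, and red points are Pcdhgc4. In the gamma panel 55 points lie at or below the lower dashed line and 12 at or above the upper one, against 12 and 18 in the alpha panel and 11 and 11 in the beta panel.

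Outside the clusters there were few positions. The 6 between alpha and beta had means of 49.96 % in wt and 39.7 % in βerko MEFs, the 36 between beta and gamma had means of 38.3 % and 38.5 %, and the 6 after gamma had means of 60.2 % and 35.7 %. Taf7, a subunit of the general transcription factor TFIID, lies between beta and gamma, and its 15 positions (gene with 500 bp upstream) were all below 20 % in both libraries. Upstream of 3222401L13Rik, 5 positions from 37815187 to 37815322 were lower in βerko MEFs, each by at least 20 points, with means of 52.5 % in wt and 17.2 % in βerko.

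To follow single genes, 58 variable exons (14 alpha, 22 beta and 22 gamma) were located as long reading frames, and each was taken with 500 bp upstream of its start codon. Of these, 39 had covered positions, 400 in all, and 19 had none (6 alpha, 12 beta and 1 gamma, Pcdhga6). At least 5 positions were covered in 30 exons, 5 alpha, 5 beta and 20 gamma. Of these 30, mean methylation was lower in βerko MEFs in 20 and higher in 10. In the gamma cluster 17 were lower and 3 higher, in the beta cluster 1 lower and 4 higher, and in the alpha cluster 2 lower and 3 higher. The mean was lower by at least 10 points in 7 of the 30, against 12.0 % of 26026 exon sets of the genome (protein-coding exons with 500 bp upstream). It was higher by at least 10 points in 1 of the 30, against 3.88 % of the sets. By at least 20 points, 1 exon, Pcdhgc4, was lower, against 5.51 % of the sets, and 0 were higher, against 1.03 %. The median difference was -3.71 points over the 30 exons and -0.196 points over the sets. How many sets were lower or higher by any amount was not counted. The sets were not matched on methylation in wt, which was higher in the locus than in the genome, so the locus exons had more room to be lower.

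**Figure D3:**
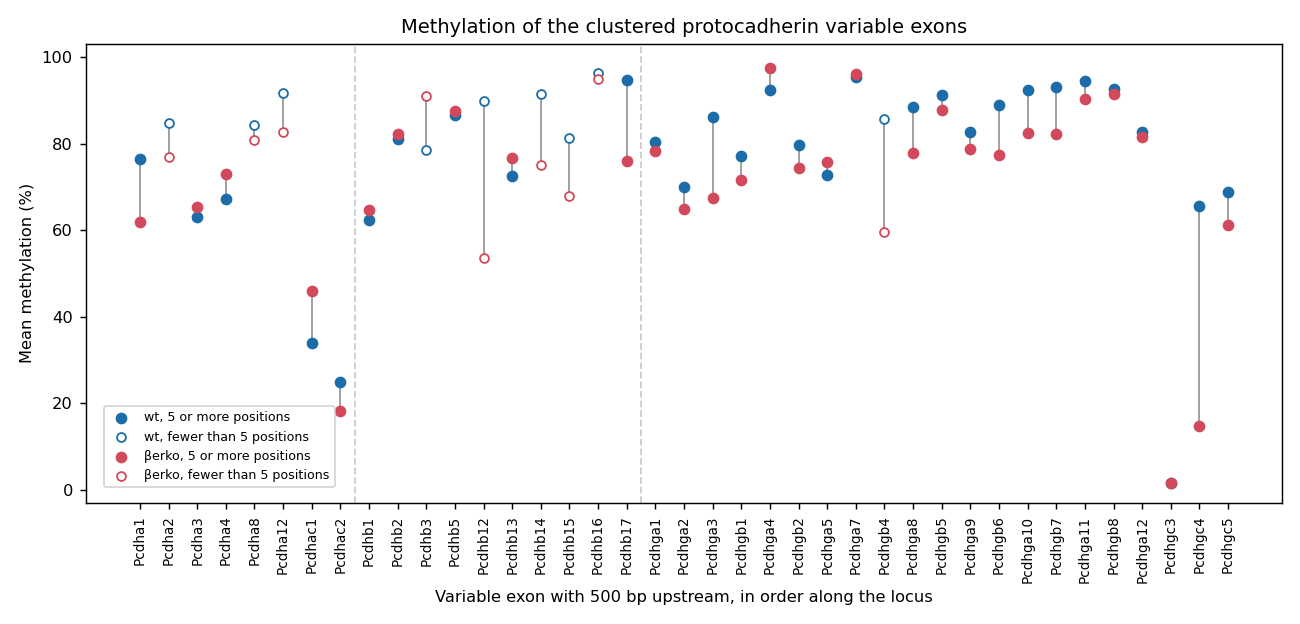
Mean methylation (%, y axis) of each variable exon with 500 bp upstream, in the order of the genes along the locus (x axis), in wt (blue) and βerko MEFs (red); open circles are exons with fewer than 5 covered positions, and dashed lines part the alpha, beta and gamma genes. Most exons lie above 60 % in both libraries, Pcdhac1, Pcdhac2 and Pcdhgc3 lie below 50 %, and Pcdhgc4 has 65.6 % in wt and 14.8 % in βerko MEFs.

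Variable exons of other than the C-type were mostly methylated at the positions covered. Their 292 positions had means of 83.2 % in wt and 78.6 % in βerko MEFs, and 1.71 % of them were below 20 % in wt. Of these 5 positions, 3 were on 1 fragment of Pcdha3 from 427 to 442 bp of the reading frame, with 3.57, 17.9 and 12.5 % in wt and 7.69, 7.69 and 15.4 % in βerko MEFs. In the 500 bp upstream of the start codon, where 27 positions in 7 genes were covered, the means were 81.5 % in wt and 70.9 % in βerko MEFs. Within the first 500 bp of the reading frame, 65 positions in 18 genes had means of 76.8 % and 70.8 %, and from 500 to 1000 bp 83 positions in 14 genes had means of 86.7 % and 85.0 %. Upstream and early positions thus differed more than those from 500 to 1000 bp, but they came from different genes, and the 55 positions from 1000 to 1500 bp had 84.4 % and 78.8 %. By cluster, the means were 72.6 % and 70.5 % in alpha (37 positions), 80.3 % and 77.4 % in beta (66 positions), and 86.3 % and 80.7 % in gamma (189 positions).

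The density of CpGs around the start codon differed between the clusters. The ratio of observed to expected CpGs within 500 bp of the start had a median of 0.73 over the 12 other alpha exons, 0.39 over the 22 beta exons and 0.63 over the 19 other gamma exons. For the C-type exons it was 0.61 at Pcdhac1, 0.80 at Pcdhac2, 0.84 at Pcdhgc3, 0.70 at Pcdhgc4 and 0.26 at Pcdhgc5. The ratio at Pcdhac1 was below the median of the other alpha exons, and 10 of its positions from upstream to 121 bp past its start codon lay between 0 and 28.2 % in wt.

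The C-type exons had 108 positions with means of 26.4 % in wt and 19.5 % in βerko MEFs. Without the 14 positions of Pcdhgc4 the means were 20.6 % and 20.2 % over 94 positions. Each of the 5 exons had its own pattern.

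Pcdhgc4 (37975187 to 37977811, plus strand) was covered from -116 to 110 bp relative to its start codon, 11 positions upstream and 3 in the reading frame, on 2 MspI fragments. In wt the 14 positions lay between 28 and 85.7 % with a median of 70.9 %, and in βerko MEFs between 5.66 and 28.6 % with a median of 15.1 %. All 14 were lower in βerko MEFs, 13 of them by at least 20 points. The lowest value in wt, 28 % at -45 bp, and the highest in βerko, 28.6 % at 87 bp, belonged to different positions, and the ranges of the libraries overlapped by less than 1 point. On the first fragment 9 positions had means of 60.9 % in wt and 13.9 % in βerko MEFs, and on the second 5 positions had 74.1 % and 16.3 %. Lower methylation was thus seen on both fragments. The position at -45 bp moved least, from 28 to 18.5 %, and its neighbour at -28 bp went from 35.1 to 5.66 %. No position beyond 110 bp of this exon was covered.

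Pcdhgc3 (37966202 to 37968817), the first gamma C-type exon, was unmethylated in both libraries. Its 38 positions on 8 MspI fragments had means of 1.64 % in wt and 1.46 % in βerko MEFs. The highest value was 21.7 % in wt and 27.3 % in βerko MEFs, and medians were 0 in both. Pcdhgc5 (37979329 to 37981944), the last gamma variable exon, was covered only from 1616 bp of its reading frame onwards. There 7 positions ranged from 27.3 to 100 % in wt and from 22.6 to 97.1 % in βerko MEFs, with means of 68.7 % and 61.1 %. Nothing was measured at the start of Pcdhgc5, so it cannot be set beside the starts of Pcdhgc3 and Pcdhgc4.

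Pcdhac1 (37249790 to 37252249) went from low to high methylation along the exon. Upstream of its start codon 7 positions had means of 4.43 % in wt and 7.39 % in βerko MEFs, and in the first 200 bp 3 positions had 4.31 % and 20.2 %. From 200 to 700 bp, 6 positions had means of 61.3 % in wt and 89.0 % in βerko MEFs. Of these, the position at 247 bp went from 35.5 to 90.9 %, that at 263 bp from 48.4 to 100 % and that at 401 bp from 40.2 to 70.4 %. Beyond 700 bp 3 positions had 77.4 % and 75.0 %. In all, 6 of 19 positions were higher in βerko MEFs by at least 20 points and 0 were lower, with 5 of the 6 inside the exon and 1 at -11 bp (0 and 21.4 %), and the upstream positions stayed below 30 % in both libraries.

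Pcdhac2 (37303623 to 37306196) was unmethylated from 165 bp upstream to 143 bp past its start codon, where all 17 positions were below 7 % in both libraries. Over the exon and its upstream region the difference was -6.86 points, and over the reading frame alone it was -10.7 points. Beyond 700 bp, 10 positions had means of 66.8 % in wt and 51.7 % in βerko MEFs, and neighbours there moved in opposite directions. At 784, 786 and 796 bp methylation went from 77.3, 73.9 and 69.3 % in wt to 10.9, 13.0 and 21.7 % in βerko MEFs. At 812 bp, 16 bp further on, it went from 71.6 to 97.8 %, and at 847 bp from 31.4 to 76.2 %. At 903 and 904 bp, the 2 strands of one CpG, it went from 79.7 and 82.1 % to 36.4 and 40.8 %. Low methylation at the start and higher methylation further into the exon were common to Pcdhac1 and Pcdhac2. The difference between the libraries was largest from 200 to 700 bp at Pcdhac1 (27.7 points) and beyond 700 bp at Pcdhac2 (-15.1 points). At Pcdhac1 it was also 15.9 points in the first 200 bp, where methylation was low, and -2.40 points beyond 700 bp. No position beyond 1015 bp of the 2574 bp of Pcdhac2 was covered.

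**Figure D4:**
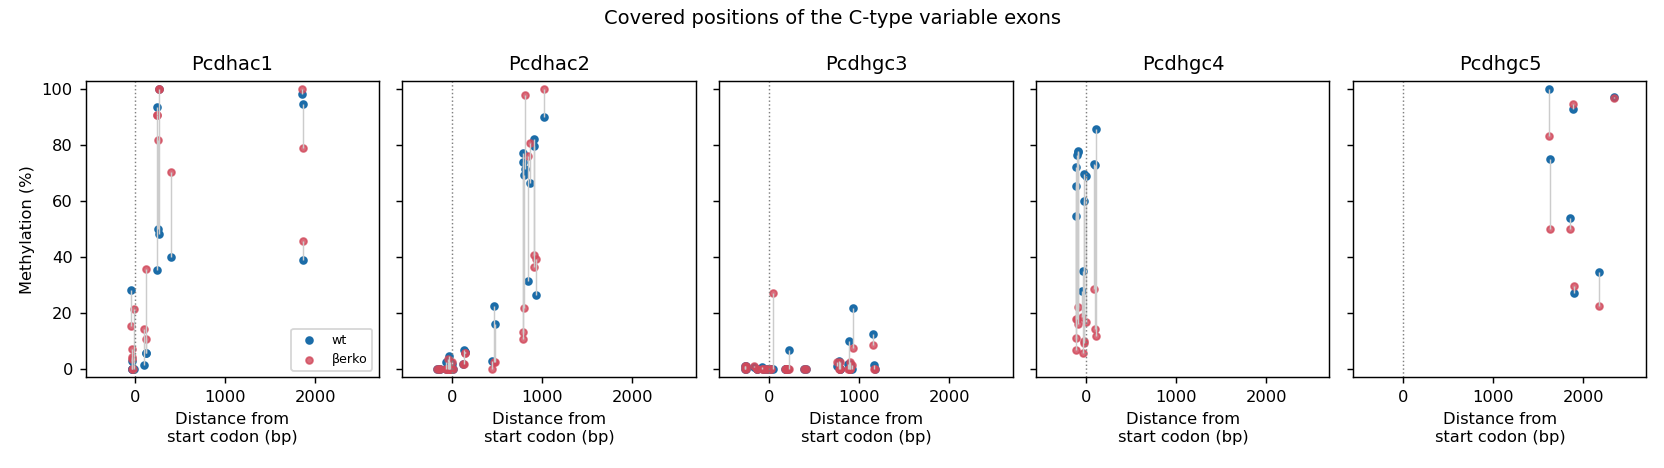
Methylation (%, y axis) of each covered position of the 5 C-type variable exons against its distance from the start codon (bp, x axis; the dotted line marks the start codon) in wt (blue) and βerko MEFs (red), with a grey line joining both values of a position. At Pcdhgc4 the 14 wt values lie between 28 and 85.7 % and the βerko values between 5.66 and 28.6 %, Pcdhgc3 is near 0 in both, and Pcdhac1 and Pcdhac2 are low at the start and higher inside the exon.

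Of the other gamma exons with at least 5 positions, Pcdhga3, Pcdhgb6, Pcdhgb7 and Pcdhga8 had means lower by at least 10 points. With both strands of a CpG merged, the differences of Pcdhgb7 (-5.86 points, in place of -10.99) and Pcdhga8 (-7.64 points, in place of -10.56) no longer reached 10 points. Pcdhga3 (37834150 to 37836579) had 13 positions with means of 86.1 % in wt and 67.5 % in βerko MEFs, and positions with large differences lay beside others with small ones. At 287 and 289 bp methylation went from 97.1 and 94.3 % to 32 and 36 %, whereas at 264 bp it was 97.1 and 88.0 % and at 299 bp 40 and 44 %. In Pcdhga8, chosen after its values were seen, the means were 88.4 % and 77.8 % over 10 positions, and the CpG at -34 bp was lower on both strands, from 58.5 to 19.6 % and from 73.8 to 39.1 %. In Pcdhgb7 the means were 93.2 % and 82.2 % over 6 positions, and the CpG at 1227 bp was lower on both strands, from 88.9 to 55.6 % and from 96.7 to 56.8 %. In Pcdhgb6 the means were 88.8 % and 77.4 %, and none of its 6 positions was higher. The gamma exons with higher means in βerko MEFs were Pcdhga4 (92.4 and 97.5 %), Pcdhga5 (72.8 and 75.8 %, a difference of 3.06 points that was 6.95 points with merged strands) and Pcdhga7 (95.5 and 96.1 %).

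A pair of further gamma exons was chosen after their values were seen. Pcdhga10, the exon of this kind with the most positions, had means of 92.3 % in wt and 82.5 % in βerko MEFs over 24 positions, and the positions at -157 and -140 bp went from 100 and 89.3 % to 56.1 and 36.6 %. It is overlapped by Gm16882, a long non-coding RNA gene on the minus strand, whose 64 covered positions all lie in variable exons or upstream of them and had means of 91.3 % and 85.4 %. Pcdhgb4 had 4 positions, and the 3 from 1407 to 1430 bp had means of 80.8 % in wt and 48.3 % in βerko MEFs.

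Among beta exons with at least 5 positions, Pcdhb17 (37644813 to 37647212) had the largest difference downwards, with means of 94.6 % in wt and 75.9 % in βerko MEFs over 11 positions. In wt its values ranged from 90.3 to 100 %. In βerko MEFs the 5 positions from 663 to 771 bp had values from 86.4 to 95.5 %, and those at 893, 903 and 909 bp had 52.2, 60.9 and 60.9 %, so that the difference was uneven along the exon. Pcdhb1 (62.2 and 64.8 %), Pcdhb2 (81.0 and 82.2 %), Pcdhb5 (86.7 and 87.4 %) and Pcdhb13 (72.5 and 76.7 %) had higher means in βerko MEFs. For Pcdhb13 the difference depended on the region taken, with 4.21 points over 6 positions and 19.9 points over the reading frame alone, which had 2 positions. For Pcdhb2 it was 1.15 points, 3.59 points in the reading frame alone and 0.17 points with merged strands. At Pcdhb1 values ranged widely between neighbours, and at 352 bp methylation went from 94.5 to 39.1 % while at 338 bp it went from 44.8 to 63.0 %. Pcdhb12, again chosen after its values were seen, had 2 positions 11 bp apart, of which one went from 79.4 to 7.14 % and the other was 100 % in both libraries.

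Among alpha exons other than the C-type, Pcdha1 had a lower mean in βerko MEFs (76.5 and 61.8 % over 7 positions), and Pcdha3 (62.9 and 65.4 % over 10 positions, of which the 3 named above were below 20 % in both libraries) and Pcdha4 (67.2 and 73.0 % over 11 positions) had higher means. At Pcdha1 the position at 2295 bp went from 63.6 to 22.0 %, and the CpGs at 2166 and 2168 bp were 92.3 and 89.4 % in wt and 94.4 % each in βerko MEFs. The Pcdha4 positions at 644, 2020 and 2196 bp went from 46.2, 59.1 and 60.9 % to 90.5, 90.5 and 91.7 %. No position upstream of these 3 start codons was covered, so the values describe exon bodies.

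The constant exons, which every transcript of a cluster shares, had few positions. The first alpha constant exon had 3 positions with means of 89.1 % in wt and 100 % in βerko MEFs, and the third had 6 with 73.1 % and 92.1 %. The first gamma constant exon had 2 positions, which went from 46.2 and 53.9 % to 9.52 % each. The other constant exons, 1 alpha and 2 gamma, had no covered position.

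Differentially methylated positions (DMPs) were those under 20 % in one library and over 80 % in the other, with more than 4 reads in each. The locus held 2 hypomethylated DMPs (lower in βerko), where 0.700 % of all covered positions were such DMPs, and 1 hypermethylated DMP, where 0.237 % were. For these positions the number of reads is known, and a two-sided exact test of Fisher was run on methylated and unmethylated reads, adjusted by Benjamini-Hochberg over all covered positions. The test compares the reads of these 2 libraries, not the genotypes. All 3 passed it, as did 5313 of the 5787 hypomethylated and 1755 of the 1960 hypermethylated DMPs of the genome. These were 0.642 % and 0.212 % of all covered positions. The DMPs were chosen from the same reads that were then tested, so passing adds little to the criterion. The library was amplified by PCR without molecular identifiers, so that the test and the exact intervals cover counting error only.

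The hypomethylated DMP at 37975297 lay in the reading frame of Pcdhgc4, 110 bp from its start codon. Methylation was 85.7 % of 49 reads in wt (95 % exact interval 72.8 to 94.1 %) and 11.9 % of 42 reads in βerko MEFs (3.98 to 25.6 %), with p = 4.06e-13 before adjustment. Its 2 covered neighbours within 100 bp had means of 73.2 % and 21.4 %, so that it moved with its surroundings. The hypomethylated DMP at 37835175 lay in the reading frame of Pcdhga3, 1025 bp from the start codon. Methylation there was 94.4 % of 18 reads in wt (72.7 to 99.9 %) and 18.2 % of 11 reads in βerko MEFs (2.28 to 51.8 %), with an adjusted p of 0.00628 in Fisher's exact test. Its 2 neighbours within 100 bp were higher in βerko MEFs, with means of 67.7 % and 77.3 %. This DMP therefore stood alone among its covered neighbours.

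The hypermethylated DMP at 37345411 lay in the third alpha constant exon, which holds the end of the alpha coding sequence and the 3′ untranslated region. Methylation was 16.7 % of 24 reads in wt (4.74 to 37.4 %) and 100 % of 9 reads in βerko MEFs (66.4 to 100 %), with an adjusted p of 0.00242 in Fisher's exact test. No other position was covered within 100 bp. The nearest covered positions in the same exon, at 37344695 and 37345524, had 95.7 and 60.7 % in wt and 100 and 52.4 % in βerko MEFs. The authors' annotation assigned the Pcdhgc4 and Pcdhga3 DMPs to the symbol Pcdhgb1 and this one to Pcdha4, since transcripts of a cluster span one another's exons, and the exon names used here come from the position itself.

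Where at least 3 neighbouring positions with gaps of at most 100 bp all differed by at least 20 points in one direction, they were counted as a run. The locus held 6 runs of lower methylation with 27 positions (5.50 % of its positions, against 3.53 % of all positions) and 2 runs of higher methylation with 7 positions (1.43 %, against 0.720 %). Of the 6 lower runs, 2 were at Pcdhgc4, with 6 and 7 positions, and the others were those in Pcdhac2, Pcdhb17 and Pcdhgb4 and upstream of 3222401L13Rik. Without the 2 runs at Pcdhgc4, the share of locus positions in lower runs was below that of all positions. The higher runs lay outside variable exons. From 37445349 to 37445367, between beta genes, 3 positions went from a mean of 46.7 to 88.3 %, and from 37703673 to 37703768, downstream of the beta cluster, 4 positions went from 42.4 to 78.6 %. The other positions that differed by at least 20 points lay outside runs. With a median of 3 covered positions per MspI fragment, many had too few neighbours to form a run, so this does not show that they differed alone.

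CpGs read on both strands allow a check within each library, because the 2 strands are read separately. At a CpG in an MspI site the strands are read from adjoining fragments, and elsewhere from opposite ends of the same fragment. In the locus 26 CpGs were covered on both strands, and the median difference between strands was 5.77 points in wt and 4.21 points in βerko MEFs, against 1.80 and 1.35 points over 70667 CpGs of the genome. It reached 20 points at 2 CpGs (7.69 %) in wt and 4 (15.4 %) in βerko MEFs, against 9.26 % and 7.93 % of those of the genome. The CpGs of the genome were not matched on methylation. In wt 50.3 % of all positions were below 20 %, against 18.9 % in the locus, and strands near 0 have little room to differ. Of 12 CpGs that differed between the libraries by at least 20 points on either strand, 8 did so on both strands in the same direction and 0 in opposite directions, against 7514 and 145 of 15731 such CpGs of the genome.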

How the data were processed

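The authors made 1 RRBS library of wt and 1 of βerko MEFs, each of pooled DNA from 3 batches, and mapped reads to mm9 with the Genomatix Mining Station; the submitters' processing notes also name CASAVA 1.4. They deposited, for all cytosines that both libraries covered, the percent of methylated reads with no depth, and for DMPs the read counts in each library (deposited as whole numbers). Columns of the authors' annotation were used only for symbols. Depth is therefore known only at DMPs, where medians were 21 reads in wt and 47 in βerko MEFs at hypomethylated and 33 and 31 at hypermethylated DMPs.

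Percentages were averaged per library with each position counted once, and differences are βerko minus wt. Each of the 491 positions was a CpG cytosine of NCBIM37. GENCODE models of that build merge the alpha and gamma genes, so variable exons were located as plus-strand reading frames of at least 1500 bp and named by the order and spacing of RefSeq starts of GRCm38.p6 (tolerance 1000 bp). Of 64 frames 58 were named, and 22 of 22 beta names equalled GENCODE's. A frame ends at its stop codon and can include some intron. The gamma limit was the start of Pcdhga1. Read counts were compared with Fisher's exact test, adjusted over 826937 positions with untested ones at a p of 1, at a threshold of 0.05. Shares have Wilson and single positions exact intervals at 95 %. The Fisher procedure was tested on simulated data.

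The genes named were, in each cluster, up to 4 exons with the largest falls and rises among those with at least 5 positions, genes with a DMP, the C-type and constant exons and other genes of the window. Of the other genes, Gm10544 (2 positions, 84.4 % in wt and 95.5 % in βerko MEFs) is given only here. So is Gm10545 (91.7 % and 82.6 %), whose 3 positions all lie in variable exons or upstream of them. Pcdhga8, Pcdhga10, Pcdhgb4 and Pcdhb12 lie outside this rule. Members, lists and this rule were chosen with earlier results of these data known. Alternatives were tried for coverage, thresholds, strands, limits and promoter length. No sequence is printed. Python 3.11.15, NumPy 2.4.6, pandas 2.3.3, SciPy 1.17.1 and matplotlib 3.10.9 were used.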

Additional observations from a re-analysis of the deposited data

How the results depend on the processing

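No paired analysis was possible because each cell type had 1 library, and for the same reason no library could be left out. Of 39 alternatives to the main counts and means, 32 stayed within the limits set, and the sign changed in 1 of these, the alpha cluster. The others moved counts by their own construction. For counts the limit was a factor of 1.5. For means it was the half-width of a 95 % interval that takes each position as a single trial. This half-width was larger than each mean difference itself, so staying within it does not show that a mean difference is stable. With thresholds of 10 and 90 % the locus had 0 DMPs in either direction. With at least 10 reads in both libraries there were 0 hypermethylated DMPs, by the criterion and after Fisher's exact test, since the βerko library had 9 reads at this position. Positions lower in βerko MEFs numbered 61 at a difference of at least 30 points and 23 at 50 points, and positions higher numbered 27 and 4. The mean difference of the alpha cluster, 2.05 points over positions, was -0.26 points as a mean over its exons with at least 5 positions, so it has no settled direction. Without Pcdhgc4, added after seeing the data, the mean difference of the locus was -2.65 points, and 75 positions were lower by at least 20 points. With the GENCODE limits of the gamma cluster, also added later, its difference was -7.59 points. The 23 exons described kept their sign in 69 of 69 alternatives, but most of these alternatives could not change a value. A longer promoter added no covered position to any of them. The reading frame alone changed nothing where no upstream position was covered. Of the 69 values, 7 moved by over 1.5 times. Over the reading frame alone these were Pcdhac2 (-10.7 points), Pcdhb13 (19.9) and Pcdhb2 (3.59). With merged strands they were Pcdhb13 (7.96), Pcdhb2 (0.17), Pcdhga5 (6.95) and Pcdhgb7 (-5.86). Depth is unknown at all but 3 positions of the locus, so a single percentage can rest on few reads.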

Other observations

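Protocadherin genes outside the clusters, which are also cell adhesion molecules of the cadherin family, were followed as a fixed list of 12 genes with 771 covered positions. Their mean difference had a median of -2.38 points, and 3 of the 12 were lower in βerko MEFs by at least 10 points. The share of all genes with means lower by this much was not counted, so the 3 cannot be set against the genome. Pcdh8 had means of 60.1 % in wt and 31.7 % in βerko MEFs, Pcdh10 of 48.1 % and 26.9 %, and Pcdh17 of 55.6 % and 32.7 %. The list held 10 hypomethylated DMPs, in Pcdh8, Pcdh10, Pcdh17 and Pcdh11x, and 0 hypermethylated DMPs, against 0.700 % and 0.237 % of all covered positions. Pcdh18 was unmethylated in both libraries, with 0.17 % and 0.67 % over 12 positions. Pcdh7 and Pcdh18 had means below 10 % in wt and so could not be lower by 10 points. Pcdh9, Pcdh11x and Pcdh12 had higher means in wt than Pcdh8, Pcdh10 and Pcdh17, and were not lower by this much. Pcdh1 (from 38345569) and Pcdh12 (from 38426746) lie on chromosome 18, beyond the end of the window, and the others lie on other chromosomes. No test of the list was made.

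A second list held 12 genes known for a part in the control of the clusters, among them Ctcf, the cohesin genes Rad21, Smc1a and Smc3, Smchd1 and the DNA methyltransferases Dnmt1, Dnmt3a and Dnmt3b. Their 958 positions gave differences of the gene means between -1.57 and 2.45 points. Dnmt3a, a de novo DNA methyltransferase, held the DMPs of this list, 1 hypomethylated and 1 hypermethylated. Over all covered positions 0.700 % and 0.237 % were such DMPs, and both counts among the 958 positions were below these shares. Methylation at these genes was measured, not their expression.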
